A study of Sus scrofa with 79 samples.

Results

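The genes described here are the interleukins and interleukin receptors on a pig whole-genome array, leaving out the inflammatory cytokines IL1A, IL1B, IL1RN, IL18, IL6, IL10 and IL8. A gene was a member if a RefSeq accession given for its probe led to a symbol that begins with IL and a digit. This gave 28 genes, measured by 39 probes, out of 2389 genes with a symbol and 36787 genes counted by symbol or accession. The rule itself used no expression value, although it was set with earlier results of these data known. 9 members had more than 1 probe, and the probes of a gene were averaged.

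Interleukins are secreted proteins through which leukocytes, epithelium and stroma signal to one another, and most act through receptors assembled from a few shared chains. IL2RG, the common gamma chain, serves the receptors of IL2, IL4, IL7, IL9, IL15 and IL21. IL12RB1 serves IL12 and IL23, which also share the subunit encoded by IL12B, while IL6ST transmits the signals of IL6 and IL27. In the intestine, IL7 and IL15 made by epithelial and stromal cells sustain lymphocytes, IL12, IL23 and IL27 are made by dendritic cells and macrophages, and IL17A is made by T cells and innate lymphocytes at the mucosa.

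The arrays came from a study of antibiotic treatment and handling stress in suckling piglets that stayed with their sows. T1 piglets were left undisturbed and handled only when blood was drawn at day 8, T2 piglets were injected with tulathromycin, a macrolide antibiotic (2.5 mg/kg, under the skin of the neck), at day 4, and for T3 the injection was combined with docking, clipping and weighing. Scrapings of jejunum and ileum were taken at days 8, 55 and 176, and blood at day 8. Each array held the pooled RNA of several piglets, so the spread given below is that between pools and not between animals. At day 8 pools of the same number in jejunum and ileum came from the same piglets. For days 55 and 176 the methods do not describe the pools. In all, 79 arrays were used: 12 of blood, 12 of jejunum and 11 of ileum at day 8, and 11 of each intestinal tissue at days 55 and 176.

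Levels are given as log2 of the background-corrected signal after quantile normalization, and a probe was taken as detected where the scanner software marked it well above background. A gene was taken as detected on an array where any of its probes was, while its level averaged all of them. Detection counts of members with 1 probe and with more are therefore not directly comparable. Because signals of different probes are not on a common scale, no gene's level was set against that of another. Summed levels of marker lists follow the markers with the strongest signals. Blood was normalized apart from intestine, except where both were compared. A gene was called changed at a Benjamini-Hochberg adjusted p under 0.05 in limma, adjusted over all genes tested, together with a change over 1.5-fold.

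Some arrays stood apart or had names in dispute. The share of probes well above background was 34.9 to 44.2% in blood and 42.4 to 75.2% in intestine. The deposited table of normalized values gave 45 of its 79 columns another tissue or age than the scanner file whose values lay nearest to them. Columns named jejunum day 8, ileum day 8, ileum day 55 and jejunum day 55 lay nearest to the scanner files of jejunum day 55, jejunum day 8, ileum day 8 and ileum day 55. Blood and day 176 columns matched. Under the names of the scanner files, which are used here, all 11 shared pools of jejunum and ileum at day 8 were closest to their own number (median r = 0.79 over the 300 most variable probes, against -0.06 for other pools). Under these names the fatty acid binding protein FABP2 lay between 15.81 and 16.71 in jejunum and between 13.7 and 14.89 in ileum at day 55, and between 16.13 and 16.86 and between 12.77 and 14.71 at day 176. At day 8 the known markers did not separate the tissues: the ileal bile acid binding protein FABP6 ranged from 5.82 to 16.16 in jejunum and from 5.62 to 16.49 in ileum, and at the later ages its medians were 17.88 or higher in both. Among single arrays, T2 pool 8 of jejunum at day 176 stood apart (FABP6 at 7.52), and at day 8 the authors left out 1 jejunal and 1 ileal array. Also in jejunum at day 176, T3 pool 4 had FABP6 at 12.07. T1 pool 9 there had 47% of probes well above background, against 59.5 to 74.8% on the other jejunal arrays of that age. Every combination of tissue, age and treatment lay on 1 slide, so slide and group cannot be told apart except where 2 treatments shared a slide.

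Detection differed widely between members. The 4 members detected on all 79 arrays were IL15, IL16, which attracts CD4+ cells, IL4R, the receptor chain shared by IL4 and IL13, and IL6ST. A further 7 were detected on 75 to 78 arrays: IL2RG and IL7R, the receptor of IL7, on 78 each, IL10RB and IL12RB1 on 77 each, IL1B2 on 76, and IL29 and IL5 on 75 each. IL10RB is the receptor chain shared by IL10 and the type III interferons, of which IL29 is a member, and IL5 is the growth factor of eosinophils. IL1B2 is a pig paralog of IL1B, and whether its 3 probes also bind IL1B transcripts was not tested.

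The other 17 members were detected on fewer arrays. IL13RA1, a receptor chain of IL13, was detected on 68 arrays, IL27 on 65, IL7 on 64, IL6R, the receptor of IL6, on 63, IL18R1, the receptor of IL18, on 53, IL12B on 52 and IL12RB2, the signalling chain of the IL12 receptor, on 47. The T cell growth factor IL2 was detected on 31 arrays, IL12A, the subunit that completes IL12, on 23, IL17A on 21, IL4 on 14 and IL2RA, the inducible chain of the IL2 receptor, on 13. The lowest counts were 8 for IL23R, 7 for IL23A, the subunit that completes IL23, 7 for IL13, a cytokine of type 2 responses, 4 for IL21, which helps B cells, and 2 for IL9. Between 10 and 24 members were detected on an intestinal array, with medians from 17 in jejunum at day 55 to 21 in ileum at day 176, against 10 to 14 with a median of 11 in blood. In blood 7 members were detected on all 12 arrays and 13 on none.

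**Figure D1:**
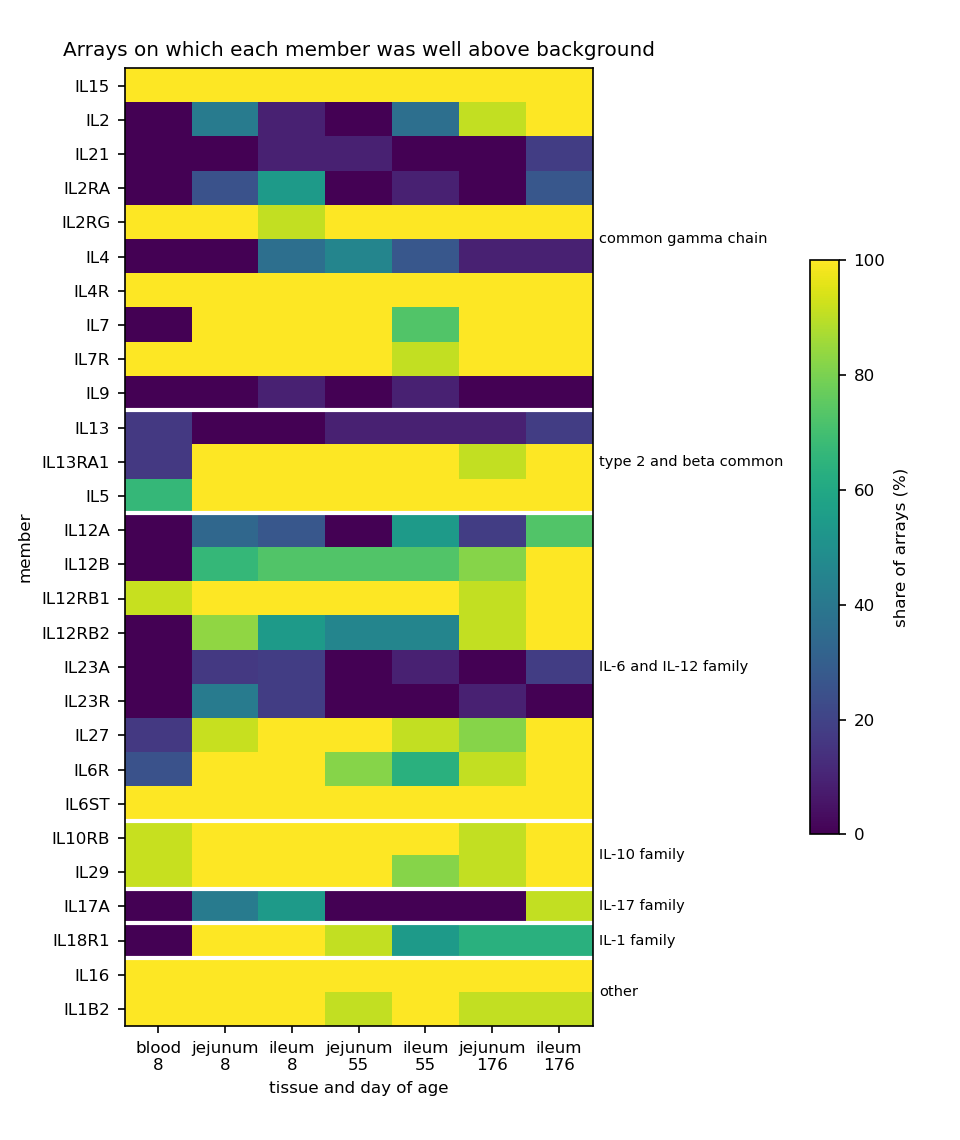
Share of arrays on which each of the 28 members (rows, grouped by family) was well above background, in the 7 combinations of tissue and age (columns); the colour runs from dark purple for no array to yellow for all arrays. The 4 members detected on all 79 arrays are yellow throughout, IL17A comes near to that in ileum at day 176 alone (10 of 11 arrays), and IL7 is dark purple in blood (0 of 12).

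Detection of several low members differed between sites and ages. IL17A was detected in 5 of 12 jejunal and 6 of 11 ileal pools at day 8, in none at day 55, and at day 176 in 10 of 11 ileal and 0 of 11 jejunal pools. IL2 was detected in 5 jejunal pools and 1 ileal pool at day 8, in 0 and 4 at day 55, and in 10 and 11 of 11 at day 176. IL4 was detected in 5 of 11 jejunal pools at day 55 and in 0 to 4 pools elsewhere in the intestine. For such genes a low level is only a bound, and a fold is written as "at least" that size. No fold is given where the brighter side was detected in at most 2 pools or where the bound lay under 1.

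From day 8 to day 55, 10 members rose and 4 fell in jejunum, of 27 tested, where 37% of all 32023 genes were called (18.1% higher, 18.9% lower). The members' median change was 0.58 on the log2 scale, against 0.03 over all genes. In ileum 9 rose and 6 fell, where 47.3% of all genes were called (24.3% higher, 23% lower), and the medians were 0.08 and 0.11. The members that rose in both tissues were IL16, IL12B, IL12RB1, IL27 and IL12A, and those that fell in both were IL4R and IL23R, the specific chain of the IL23 receptor. Day 8 and day 55 arrays lay on different slides scanned in different sessions, so age and slide cannot be told apart.

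IL16 lay between 9.68 and 11.44 (median 10.55) in the 12 jejunal pools at day 8 and between 11.46 and 12.48 (median 11.64) in the 11 at day 55. In ileum it went from 9.79 to 11.7 (median 10.57) at day 8 to 13.12 to 13.64 (median 13.37) at day 55. The ages did not overlap in either tissue. The rise was 1.26 ± 0.16 (SE; adjusted p = 2.81e-09) in jejunum and 2.71 ± 0.16 (adjusted p = 1.83e-20), or 6.56-fold, in ileum. The difference between the tissues was itself past the test, at 1.45 ± 0.23 (adjusted p = 1.19e-06).

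Among the IL12 group, the shared receptor chain IL12RB1 rose by 1.51 ± 0.28 (adjusted p = 1.18e-05) in jejunum and by 1.89 ± 0.29 (adjusted p = 1.5e-07) in ileum, where day 8 pools lay between 6.45 and 8.63 and day 55 pools between 8.74 and 9.42. The shared subunit IL12B ranged from 3 to 6.68 (median 4.3) in ileum at day 8 and from 5.72 to 6.92 (median 6.3) at day 55. Its rise was 1.90 ± 0.29 (adjusted p = 1.44e-07) there and 1.29 ± 0.28 (adjusted p = 0.000136) in jejunum. IL27, a cytokine of the same family, rose by 1.24 ± 0.31 and 1.28 ± 0.32 in jejunum and ileum (adjusted p = 0.000794 and 0.00056). IL12A rose by 1.25 ± 0.30 in ileum (adjusted p = 0.00033), whereas its call in jejunum (0.69, adjusted p = 0.0458) rested on pools of which none detected it at day 55, and the adjusted p was 0.0534 with the pool number as a block; it was lost without any of 14 arrays. IL23A, IL6R and IL9, a mast cell growth factor, were called higher in ileum alone (0.72, 0.62 and 1.06; adjusted p = 0.0325, 0.0111 and 0.00682), and IL9 was detected there on 1 array of each age. IL9 passed the filter on low levels only through day 55, so its rise, counted above, carries no weight. The ileal day 55 levels include T3 arrays with 42.4 to 52% of probes well above background, on which none of these members was detected. IL23A and IL6R were each lost without any of 6 arrays (0.54 to 0.67 and 0.54 to 0.58).

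Opposite patterns were seen in the gamma chain family. IL15 went from 8.56 to 9.37 (median 8.84) in jejunum at day 8 to 9.78 to 10.94 (median 10.26) at day 55, with no overlap and a rise of 1.40 ± 0.15 (adjusted p = 1.85e-11). In ileum it did not pass the test, with medians of 8.97 and 8.69, and the tissues differed by -1.60 ± 0.21 (adjusted p = 3.74e-08). IL7 rose by 0.79 ± 0.23 in jejunum (adjusted p = 0.00375) but fell by 1.38 ± 0.24 in ileum (adjusted p = 1.8e-06). For IL7 the day 8 medians were 7.31 and 7.76 in jejunum and ileum, and the day 55 medians were 8.24 and 6.5. The difference between the tissues was -2.18 ± 0.33 (adjusted p = 6.28e-07). IL2RG rose in ileum by 1.54 ± 0.28 (adjusted p = 5.18e-06), and the tissues differed by 1.29 ± 0.39 (adjusted p = 0.00689). With slide as a random block this tissue difference was 1.11 and not called.

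IL4, the cytokine of type 2 T cells, lay between 1.72 and 3.66 (median 2.72) in jejunum at day 8, where no pool detected it, and between 4.14 and 6.09 (median 4.71) at day 55. The change was 2.02 ± 0.34 (adjusted p = 1.52e-06), or at least 3.84-fold. Its receptor chain IL4R fell by 1.06 ± 0.18 (adjusted p = 1.89e-06) in jejunum and by 0.68 ± 0.18 (adjusted p = 0.00142) in ileum. At day 55 the jejunal level of IL4R also differed between treatments (below 8 in T1 pools and above it in the others, as described under the treatments). IL13RA1, with which IL4R forms a receptor for IL4 and IL13, rose in jejunum by 0.63 ± 0.14 (adjusted p = 0.000231), and the type III interferon IL29 by 0.98 ± 0.28 (adjusted p = 0.00254). Without 1 array the change fell under 1.5-fold for IL4R in ileum (T1 pool 12 of day 8, -0.54) and for IL13RA1 (T3 pool 1 or T2 pool 5 of day 55, 0.56 and 0.57).

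Lower at day 55 were IL6ST in jejunum (-0.80 ± 0.13, adjusted p = 5.92e-07) and IL1B2 in jejunum (-0.67 ± 0.18, adjusted p = 0.00174; -0.56 without T2 pool 5 of day 8). IL18R1 fell in ileum by 1.66 ± 0.22 (adjusted p = 2.86e-09), from 4.5 to 5.75 at day 8 to 3.27 to 4.34 at day 55, with no overlap. IL23R was called lower in both tissues (-0.92, at least 1.28-fold, and -0.93, no fold; adjusted p = 0.00143 and 0.00129). IL17A (-1.14, adjusted p = 0.0268) and IL2RA (-0.83, adjusted p = 0.0245) were called lower in ileum but turned to 0.2 and 0.46 when each array was scaled to its 75th percentile. IL17A was not past the test without ileal T1 pool 11 of day 8 (-0.79) or T2 pool 5 of day 55 (-0.97), and IL2RA not without T2 pool 5 of day 8 (-0.77) or T2 pool 7 of day 55 (-0.75).

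The change with age also differed between the tissues, ileum minus jejunum, for IL4 (-2.48 ± 0.49), IL18R1 (-1.25 ± 0.30), IL5 (-0.92 ± 0.31), IL13RA1 (-0.83 ± 0.21), IL1B2 (0.75 ± 0.26) and IL23A (1.22 ± 0.41), with adjusted p from 4.75e-05 to 0.0184. None of these 6 kept its call under all 3 scalings tried (quantile, 75th percentile, and normexp background correction). At the 75th percentile IL4 was at -0.87, IL18R1 at -0.26, IL5 at -0.22 and IL13RA1 at -0.49, not called, and with normexp IL1B2 and IL23A were at 0.31 and 0.15, not called. With slide as a random block IL5, IL1B2 and IL23A were not called either (-0.79, 0.84 and 1.38). IL7, IL15, IL16 and IL2RG kept their call under the 3 scalings. With them, 10 of 27 members were called, 4 higher and 6 lower, where 34.4% of all genes were (17.2% in each direction). Scaling to the 75th percentile gave 11 higher and 2 lower.

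**Figure D2:**
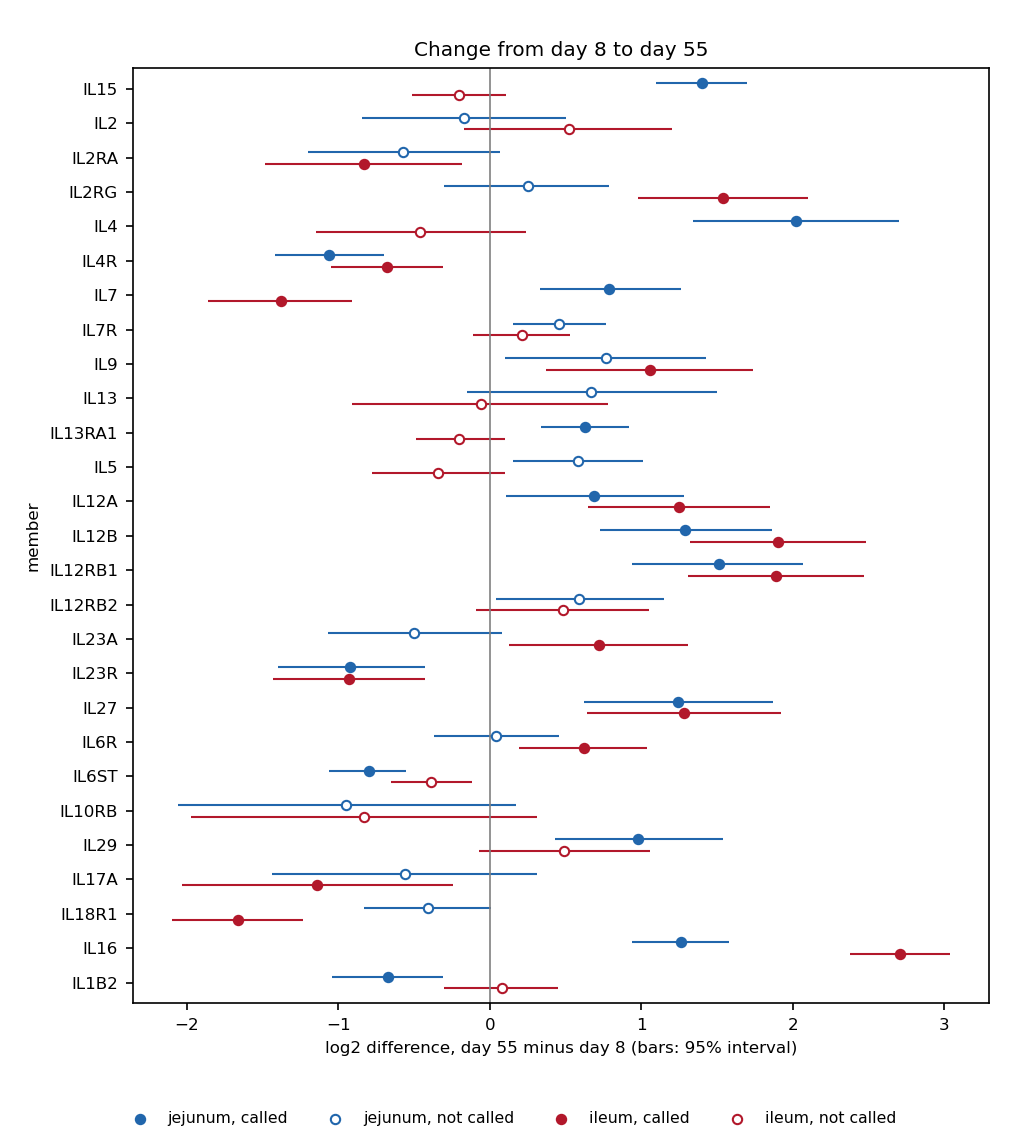
Change from day 8 to day 55 of the 27 members tested (rows), as log2 difference with its 95% interval (x axis), in jejunum (blue) and ileum (red); filled points were called. IL16 is the rightmost ileal point at 2.71 and IL4 the rightmost jejunal point at 2.02, and IL7 lies at 0.79 in jejunum and -1.38 in ileum.

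Markers of several cell types changed in the same tissue over the same interval. All 8 T cell markers on the array rose from day 8 to day 55 in both tissues (medians 2.07 and 2.4), and their summed level went from 10.93 to 12.36 up to 13.09 to 14.13 in jejunum and from 10.89 to 11.7 up to 13.37 to 14.13 in ileum. All 3 B cell markers rose in ileum (median 5.87) and 0 of 3 passed in jejunum (median 0.35). Of 7 epithelial markers, 1 rose in jejunum, while 4 fell in ileum, from a summed level of 19.1 to 19.48 to one of 17.9 to 18.73. APOA4 had the strongest signal in that sum at day 8 (ileal medians 18.13 at day 8 and 15.95 at day 55). Of 7 myeloid markers 3 rose in jejunum and 5 in ileum, among them CD86 in both (2.78 and 2.59), and the summed level went from 14.26 to 16.69 up to 16.74 to 17.6 in jejunum and from 15.2 to 16.23 to 15.57 to 16.42 in ileum. The myeloid sum was carried largely by LYZ, with medians of 14.92 and 15.09 in jejunum and ileum at day 8 and 16.94 and 15.7 at day 55. All 3 smooth muscle markers (ACTA2, CNN1 and DES) fell in both tissues (medians -1.81 and -1.61), with summed levels of 14.18 to 15.13 and 13.19 to 14.78 at day 8 against 12.44 to 13.4 and 12.46 to 13.2 at day 55. In tissue scrapings a change in the number of cells of a type and a change in RNA per cell cannot be told apart, and the part of these cells in the members' changes was not tested. Of 18 genes on the array that act downstream of interleukin receptors, 6 rose in jejunum, among them GATA3, JAK2 and STAT4, and 3 fell (SOCS2, TRAF6, TYK2). In ileum 5 rose, among them GATA3, SOCS3 and STAT4, and 4 fell (SOCS2, SOCS5, STAT5B, TYK2). STAT4, which carries the IL12 signal, rose by 1.14 ± 0.15 and 1.01 ± 0.15.

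Of these calls 7 of 14 in jejunum (IL12RB1, IL15, IL16, IL29, IL7, IL4R, IL6ST) and 6 of 15 in ileum (IL16, IL12B, IL12RB1, IL2RG, IL27, IL7) were made in the same direction under all 3 scalings tried. At the 75th percentile the split was 9 higher and 8 lower in jejunum and 15 higher and 3 lower in ileum, and with normexp background correction it was 5 and 1 in ileum. With the array names of the table of normalized values, 3 of the jejunal calls kept their direction and 4 were called the other way, and 1 of the ileal calls was made.

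**Figure D3:**
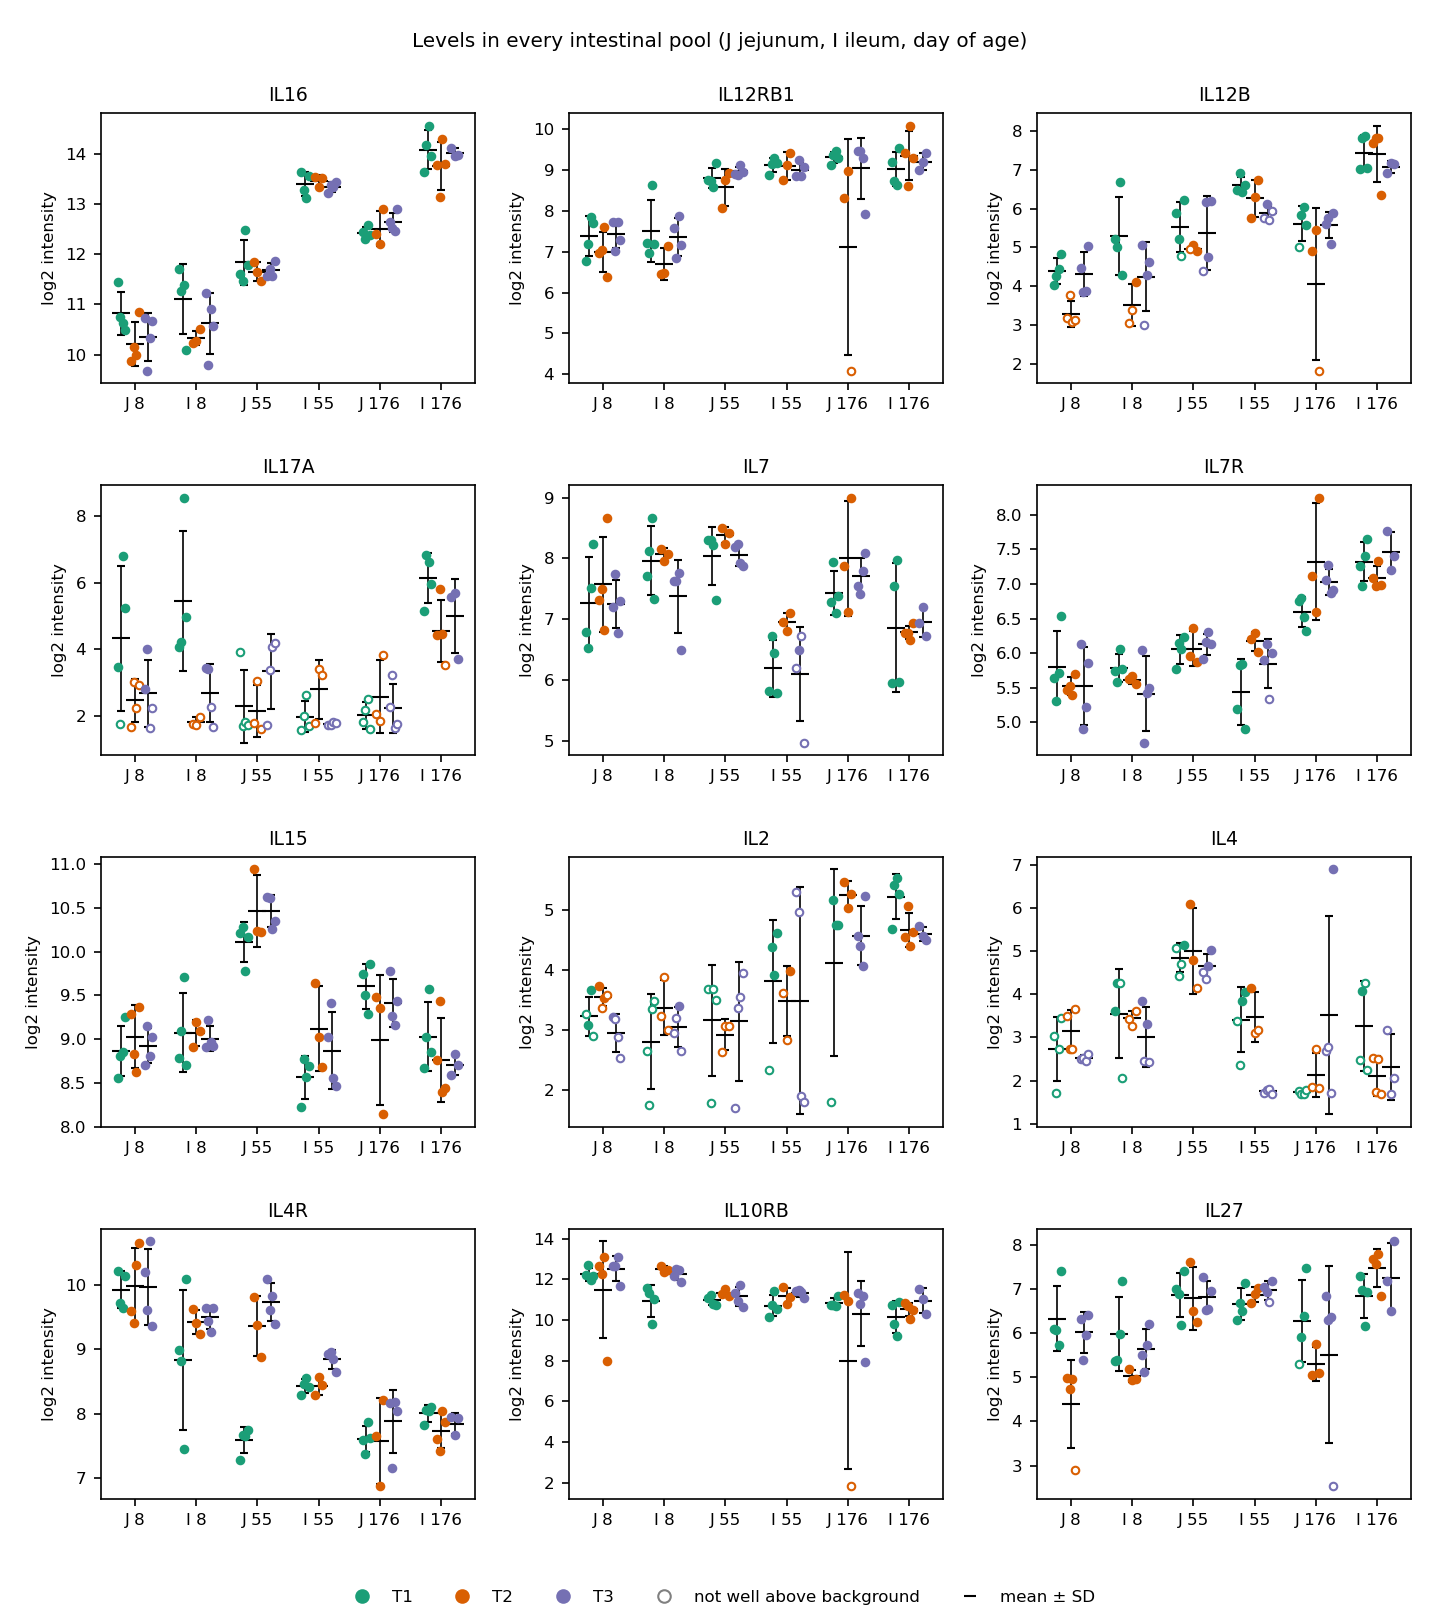
Log2 level of 12 members (panels) in every pool of the 6 combinations of intestinal tissue and age (x axis), coloured by treatment; open points were not well above background, and bars give the mean and SD. IL16 steps up with age in both tissues, IL17A is high in ileum at day 176 (3.52 to 6.82), and at day 55 the jejunal IL4R pools of T1 lie below those of T2 and T3.

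Changes from day 55 to day 176 were called in each tissue apart, and a difference in change between the tissues was not tested. The day 176 arrays lay on other slides, scanned in another session, than those of day 8 and day 55. Age and slide cannot be told apart in any comparison with day 176. In jejunum 3 members rose and 11 fell, of 27, where 37% of all genes were called (20.1% higher, 16.9% lower) and the medians were -0.45 for members and 0.01 for all genes. In ileum 4 rose and 2 fell, where 28.5% of all genes were called (15.7% higher, 12.8% lower) and the medians were 0.12 and -0.01. With 75th percentile scaling the split was 8 higher and 6 lower in jejunum, and 5 higher and 4 lower in ileum.

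IL17A had the largest ileal change of any member. It lay between 1.6 and 3.41 (median 1.8) at day 55, where no pool detected it, and between 3.52 and 6.82 (median 5.58) at day 176, where 10 of 11 did. The ages did not overlap, and the change was 3.03 ± 0.45 (adjusted p = 3.38e-07), or at least 2.72-fold. IL7R followed, from 4.9 to 6.29 (median 5.9) at day 55 to 6.97 to 7.77 (median 7.26) at day 176, again with no overlap. Its rise was 1.47 ± 0.16 (adjusted p = 1.8e-10), or 2.77-fold, in ileum and 0.90 ± 0.16 (adjusted p = 5.21e-06) in jejunum. The other ileal calls were IL2 (1.24 ± 0.34, adjusted p = 0.00315), IL12B (1.06 ± 0.29, adjusted p = 0.00288), IL4R (-0.70 ± 0.18, adjusted p = 0.00194) and IL9 (-1.25, adjusted p = 0.00274), which was detected in 1 of 11 pools at day 55 and in none at day 176. Since IL9 passed the filter only through day 55, its fall carries no weight either. In ileum all 4 neutrophil markers rose with age at the same time (median 2.67), and their summed level went from 6.85 to 7.94 up to 7.78 to 12.95; their part in the IL17A change was not tested.

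In jejunum IL4 fell by 2.37 ± 0.35 (adjusted p = 1.4e-07), from 4.14 to 6.09 at day 55 to 1.68 to 6.89 (median 1.82) at day 176. Its only detected pool at day 176 was T3 pool 4, at 6.89. IL2 went from 1.7 to 3.96 (median 3.37), detected in no pool, to 1.8 to 5.47 (median 4.76), detected in 10 of 11, a change of 1.57 ± 0.34 (adjusted p = 0.000149), or at least 2.66-fold. IL16 rose by 0.80 ± 0.16 (adjusted p = 6.55e-05). IL13RA1 fell by 1.34 ± 0.15 (adjusted p = 1.19e-10), from 7.72 to 8.9 to 6.4 to 7.47 with no overlap, and IL4R by 1.19 ± 0.18 (adjusted p = 4.43e-07). IL15 fell by 1.01 ± 0.15 (adjusted p = 3.03e-07) and IL29 by 1.20 (adjusted p = 0.000416).

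The remaining jejunal calls were IL18R1 (-1.21, adjusted p = 6.77e-06), IL27 (-1.13, adjusted p = 0.0029), IL5 (-0.72, adjusted p = 0.00603), IL6R (-0.66, adjusted p = 0.00867), IL2RG (-0.72, adjusted p = 0.0298) and IL10RB (-1.44 ± 0.57, adjusted p = 0.0324). None of the 6 kept its call under all 3 scalings. IL18R1, IL27 and IL5 were not called at the 75th percentile (-0.19, -0.62 and -0.05) or with normexp (-0.33, -0.52 and -0.28). IL10RB rested on T2 pool 8 of day 176 (-0.41, adjusted p = 0.374 without it), and like IL2RG it was also lost without T3 pool 4 of day 176 (-1.17 and -0.56) or T2 pool 6 of day 55 (-1.41 and -0.65), while IL2RG was lost without T2 pool 8 too (-0.67). With the pool number as a block IL10RB and IL2RG had adjusted p = 0.0553 and 0.0508. IL6R turned to 0.59 at the 75th percentile and fell under 1.5-fold without T1 pool 11 of day 55 or T2 pool 5 or T1 pool 9 of day 176 (-0.51 to -0.56), and the 2 probes of IL2RG gave 0.01 and -1.45. The call was the same under all 3 scalings for IL13RA1, IL29, IL4R and IL15 in jejunum and for IL17A, IL7R, IL12B and IL4R in ileum. With slide as a random block IL12B and IL4R in ileum were not called (1.07 and -0.74), nor were IL10RB, IL2RG and IL6R in jejunum (-1.18, -0.64 and -0.62). Of the 18 downstream genes 8 fell in jejunum, among them MYD88, SOCS2 and STAT5A, and 2 fell in ileum (SOCS2, TRAF6).

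Over the whole interval, from day 8 to day 176, 6 members rose and 9 fell in jejunum, where 48.9% of all genes were called (26.9% higher, 22% lower), and 10 rose and 6 fell in ileum, where 48.6% were (26.1% higher, 22.5% lower). IL16 had the largest ileal change, with no overlap between 9.79 to 11.7 at day 8 and 13.13 to 14.56 at day 176 (3.26 ± 0.16, adjusted p = 8.45e-24), and IL12B the next (2.96 ± 0.29, adjusted p = 6.41e-13). In jejunum IL4R fell by 2.26 ± 0.18 (adjusted p = 6.66e-16), from 9.36 to 10.67 to 6.88 to 8.21 with no overlap. IL10RB went from 7.98 to 13.13 (median 12.46) to 1.82 to 11.35 (median 10.79), the lowest being T2 pool 8. It fell by 2.39 ± 0.55 (adjusted p = 0.00022) with that pool and by 1.36 ± 0.36 (adjusted p = 0.0011) without it. Among the age comparisons IL12RB2 was called over this interval alone, higher by 0.93 ± 0.28 in jejunum and 0.94 ± 0.28 in ileum (adjusted p = 0.00326 and 0.00392). Called in ileum as well were IL2, IL12A, IL17A, IL27 and IL2RG, higher, and IL7, IL18R1 and IL23R, lower. In jejunum IL2 and IL12B were also called higher, and IL13RA1, IL18R1, IL23A, IL23R, IL2RA and IL6R lower. The call was the same under all 3 scalings for 6 of 15 members in jejunum and 10 of 16 in ileum. Of the members that rose in both tissues, IL7R (1.36 and 1.68), IL16 and IL12RB1 (1.21 and 2.01) kept their call under all 3 scalings, as did IL4R and IL6ST (-1.35 and -0.77) and IL10RB (-2.39 and -1.36) of those that fell in both. The ileal call of IL10RB was lost with slide as a random block (-1.45) and without any of 7 arrays (-1.25 to -1.34, adjusted p from 0.0516 to 0.0726).

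Few members differed between jejunum and ileum at day 8, and more did later. At day 8 only IL4R was called, lower in ileum by 0.70 ± 0.18 (adjusted p = 0.0194), where 2.45% of all genes were called (1.99% lower). IL4R lay between 9.36 and 10.67 (median 9.93) in jejunum and between 7.45 and 10.08 (median 9.41) in ileum, and the call was lost without jejunal T3 pool 3 or ileal T2 pool 7 or T1 pool 11 (-0.55 to -0.67). With slide as a random block it was not called (-0.66). IL2RG differed by -0.76 ± 0.27 without passing the test (adjusted p = 0.0963), between 5.09 and 8.02 (median 6.63) in jejunum and 3.4 and 7.54 (median 6.12) in ileum.

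At day 55, 4 members were higher and 5 lower in ileum than in jejunum, where 39.6% of all genes were called (19.8% higher, 19.9% lower) and the medians were -0.06 for members and 0.03 for all genes. The largest differences were those of IL4 (-1.95 ± 0.35, adjusted p = 5.06e-06; ileum 1.7 to 4.15, median 3.11) and IL7 (-1.74 ± 0.24, adjusted p = 2.1e-08). IL7 lay between 7.32 and 8.5 in jejunum and between 4.98 and 7.11 in ileum, with no overlap. Nor did the tissues overlap for IL15 (-1.5 ± 0.15, adjusted p = 1.02e-11), IL13RA1 (-1.03 ± 0.15, adjusted p = 5.88e-08) and IL16 (1.68 ± 0.16, adjusted p = 2.45e-12). IL18R1 was lower in ileum (-1.15, adjusted p = 1.24e-05), while IL23A (1.16), IL12B (0.96) and IL12A (0.71, at least 1.49-fold) were higher (adjusted p = 0.000803, 0.00458 and 0.0432). IL23A was detected in 1 of 11 ileal and 0 of 11 jejunal pools, and IL12A in 6 and 0. For IL23A the ileal T3 pools were at 4.44, 3.91, 4.58 and 4.22, none of them detected. Ileal T2 pools were at 3.87, 2.77 and 2.64 and T1 pools at 1.62, 3.6, 2.7 and 4.76. The ileal T3 arrays had 42.4 to 52% of probes well above background. IL7, IL15, IL13RA1 and IL16 kept their call under all 3 scalings. IL4 and IL18R1 were not called at the 75th percentile (-0.4 and -0.34) or with normexp (-0.28 and -0.42), and with normexp IL23A, IL12B and IL12A were not called (0.16, 0.49 and 0.05). With slide as a random block IL12B and IL12A were not called (0.9 and 0.74). With the pool number as a block IL12A had an adjusted p = 0.0514, and it was lost without any of 12 arrays. At this age jejunum and ileum were also scanned in different sessions, which cannot be told apart from the tissue. Scaled to the 75th percentile, 10 were higher and 3 lower, with normexp 1 and 3, and under the other array names 6 of the 9 calls turned the other way.

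At day 176, 9 members were higher and 1 lower in ileum, where 28.5% of all genes were called (14.2% higher, 14.3% lower) and the medians were 0.4 for members and -0.06 for all genes. IL17A lay between 1.61 and 3.83 (median 2.08) in jejunum, detected in no pool, against 3.52 to 6.82 in ileum. The difference was 2.94 ± 0.45 (adjusted p = 3.67e-07), or at least 6.08-fold. IL12B lay between 1.82 and 6.04 (median 5.57) in jejunum and between 6.34 and 7.88 (median 7.17) in ileum, without overlap, a difference of 2.23 ± 0.29 (adjusted p = 1.05e-08). IL16 was higher by 1.43 ± 0.16 (adjusted p = 3.93e-10), IL27 by 1.5 ± 0.32 (adjusted p = 0.000144) and IL2RG by 1.5 ± 0.28 (adjusted p = 1.71e-05), and the calls of these 5 members were the same under all 3 scalings. IL6R (0.97), IL12A (0.93), IL23A (0.88, detected in 2 of 11 ileal pools) and IL12RB1 (0.70) were also higher and IL7 (-0.84 ± 0.24) lower, with adjusted p from 0.000192 to 0.0477.

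The day 176 call for IL12RB1 depended on jejunal T2 pool 8, whose level was 4.09 (difference 0.20, adjusted p = 0.463 without that pool, and 0.45, not called, with slide as a random block), and IL12A fell under the threshold without jejunal T2 pool 5 (0.71). Beside these members, all 3 B cell markers were higher in ileum (median 4.86), as were 4 of 7 myeloid and 3 of 4 neutrophil markers, and 5 of 7 epithelial markers were lower. Scaled to the 75th percentile, 5 members were higher and 2 lower.

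In blood at day 8, 13 members were higher and 6 lower than in jejunum, of 27 tested, where 75.6% of 33049 genes were called (41.7% higher, 33.9% lower) and the medians were 0.81 for members and 0.21 for all genes. Against ileum 13 were higher and 7 lower, where 74% of all genes were called (40.7% higher, 33.4% lower), with medians of 0.52 and 0.21. For these comparisons the 35 day 8 arrays were normalized together. Before normalization the median log2 intensity was 1.89 to 2.68 on blood arrays and 4.57 to 6.85 on intestinal ones. Differences are therefore relative to the other genes on an array. With 75th percentile scaling the splits were 22 higher and 4 lower and 23 higher and 3 lower, and with normexp correction 8 higher and 2 lower against ileum. Blood arrays were scanned in another session than the intestinal ones of day 8. Jejunal arrays of day 55 shared the blood session, and blood T1 pools shared a slide with jejunal T3 pools of day 55.

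The receptor of IL7 was higher in blood than in intestine, and IL7 itself was lower. IL7R was between 7.28 and 8.68 (median 8.14) in blood, between 3.79 and 5.25 (median 4.37) in jejunum and between 3.62 and 4.79 (median 4.38) in ileum. It was higher in blood by 3.70 ± 0.14 (adjusted p = 2.59e-20; 13-fold) and 3.74 ± 0.15 (adjusted p = 4.36e-20; 13.4-fold), with no overlap. IL7 was detected in no blood pool (1.03 to 4.7, median 2.47) and in every intestinal pool (jejunum 5.22 to 7.32, median 6.01; ileum 5.19 to 7.33, median 6.45). It was lower in blood by -3.43 ± 0.35 (adjusted p = 3.79e-10; at least 2.45-fold) and -3.86 ± 0.36 (adjusted p = 5.34e-11; at least 3.3-fold).

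IL10RB lay between 6.01 and 7.45 (median 6.81) in blood, between 6.66 and 11.78 (median 11.06) in jejunum and between 8.42 and 11.26 (median 10.78) in ileum. It was lower in blood by -3.91 ± 0.35 (adjusted p = 2.32e-11) and -3.70 ± 0.36 (adjusted p = 1.54e-10). IL29, whose receptor contains IL10RB, was between 6.73 and 9.14 (median 8.37) in blood and between 4.29 and 6.54 (median 4.74) in jejunum, and was higher by 3.17 ± 0.31 (adjusted p = 1.35e-10) and 3.21 ± 0.32 (adjusted p = 1.94e-10).

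**Figure D4:**
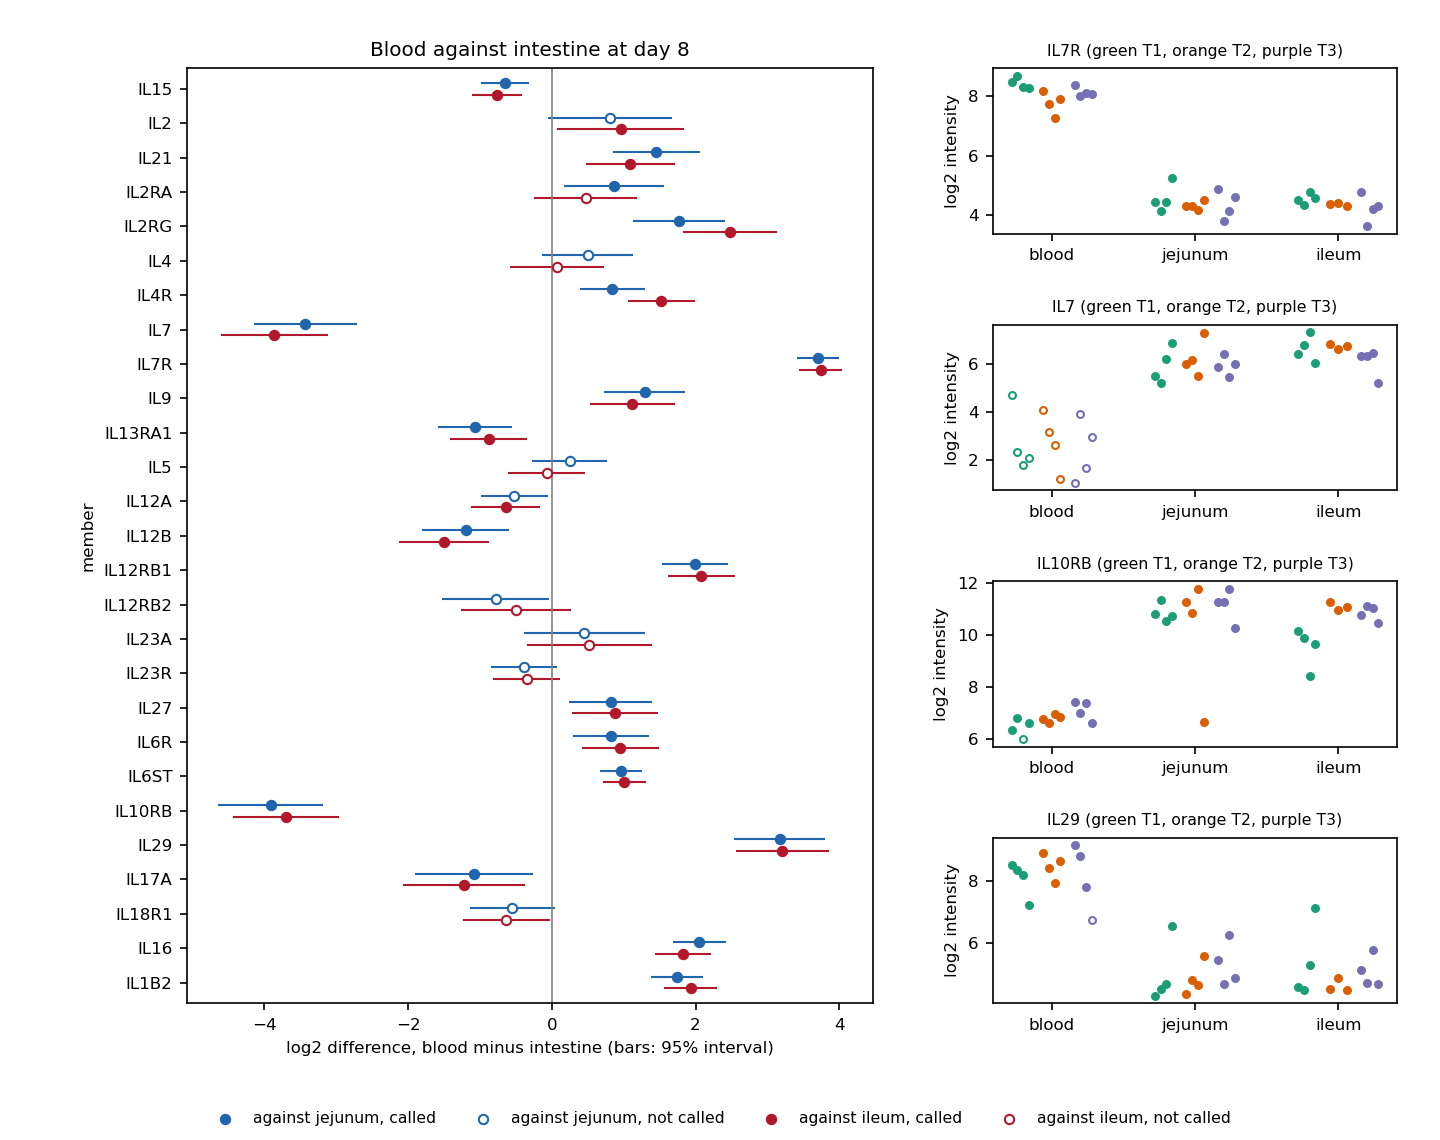
Left, log2 difference of blood minus jejunum (blue) and blood minus ileum (red) at day 8 for the 27 members tested, with 95% intervals; filled points were called. Right, the level of IL7R, IL7, IL10RB and IL29 in every pool, open where not well above background: IL7R and IL29 are higher in blood, and IL7 and IL10RB lower.

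Also higher in blood than in jejunum and ileum were IL16 (2.05 and 1.83), IL12RB1 (1.99 and 2.08), IL2RG (1.77 and 2.48), IL1B2 (1.74 and 1.93), IL6ST (0.96 and 1.01) and IL4R (0.84 and 1.52), with adjusted p from 1.99e-11 to 0.00105. With IL7R, IL29, IL10RB and IL7 these kept their call under all 3 scalings, apart from IL4R against jejunum. Since each scaling brings the arrays to a shared level, the gap in raw intensity is not tested by this. IL6R (0.83 and 0.95) and IL27 (0.82 and 0.88) were called higher, although 3 and 2 of 12 blood pools detected them. IL9 (1.29 and 1.12) and IL21 (1.45 and 1.09) were called higher in blood than in both tissues, IL2RA higher than in jejunum (0.87) and IL2 higher than in ileum (0.96), all without detection in blood. No intestinal group of day 8 brought IL9 or IL21 past the filter on low levels, and a blood group did. Their calls, counted above among those higher, therefore carry no weight. Without any of 14 arrays the call of IL2 was lost, and without blood T3 pool 2 or T2 pool 8 that of IL2RA (0.70 and 0.71). IL13RA1 (-1.07 and -0.88) and IL15 (-0.65 and -0.76; -0.58 against jejunum without blood T2 pool 6) were lower. IL12B and IL17A, and IL12A against ileum, were called lower with no detection in blood, and at the 75th percentile they turned higher (1.17 to 2.6); that of IL12A was also lost without any of 7 arrays. Of the markers, all 8 T cell, 3 B cell and 4 neutrophil genes were higher in blood than in jejunum (medians 3.08, 2.21 and 8.54) and all 7 epithelial genes lower (median -11.18).

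The treatments were compared within each tissue and age. At day 55, 9 calls fell on members in the intestine, and none at day 8, at day 176 or in blood. In jejunum at day 55, 1 of 25 members was higher in T2 than in T1, where 3.23% of 30256 genes were called (2.82% higher), and 3 were higher in T3 than in T1, where 11.9% were (6.87% higher). In ileum 1 was higher and 3 lower in T3 than in T1, where 15.8% of genes were called (8.8% higher, 6.95% lower), and 1 was lower in T3 than in T2, where 9.29% were (3.56% lower). For T3 against T2 in jejunum (1.7% of genes) and T2 against T1 in ileum (0.0859%) limma called no member, although 1 and 3 members and 3942 and 2563 genes had an unadjusted p under 0.05. At the 75th percentile 10 calls were made, all higher, and with normexp 3, all higher.

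Among the members called for treatment, IL4R had the largest difference. In jejunum at day 55 the T1 pools 9 to 12 were at 7.29, 7.67, 7.66 and 7.75, the T2 pools 5 to 7 at 9.81, 9.37 and 8.88, and the T3 pools 1 to 4 at 10.09, 9.61, 9.83 and 9.39. Every T2 and T3 pool lay above every T1 pool. The difference was 1.76 ± 0.20 for T2 against T1 (adjusted p = 0.000153; 3.38-fold), which lay on the same slide, and 2.14 ± 0.19 for T3 against T1 (adjusted p = 1.71e-06; 4.4-fold), which lay on different slides. In ileum at day 55 T1 pools lay between 8.29 and 8.55, T2 pools between 8.29 and 8.57 and T3 pools between 8.64 and 8.96. The effect in ileum was smaller than in jejunum by -1.75 ± 0.28 for T2 (adjusted p = 0.0203) and -1.72 ± 0.26 for T3 (adjusted p = 0.00162). It was the only member called for a tissue difference in T2 minus T1, where 0.241% of genes were called (0.235% lower), and in T3 minus T1, where 6.87% were (3.52% lower); for T3 minus T2 limma called 0 of 25, where 1.02% of genes were called and 2 members and 3792 genes had an unadjusted p under 0.05. Leaving out each array in turn gave 1.53 to 2 and 2.02 to 2.25 for the jejunal differences, and all 4 calls held under the 3 scalings. These jejunal arrays are named jejunum day 8 in the table of normalized values, which leaves the comparison of pools as it is but not its age.

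Of the 18 downstream genes, MYD88 (1.88 ± 0.23), SOCS3 (1.75 ± 0.42) and STAT6 (0.90 ± 0.16) were also higher in T2 than in T1 in jejunum at day 55. STAT6 is the transcription factor activated through IL4R. In T3 against T1 the same 3 genes and SOCS2 were higher, with STAT6 at 1.19 ± 0.15 (adjusted p = 4.77e-05), and JAK2 was lower (-0.61 ± 0.17). T cell markers moved in the same comparison: 5 of 8 were higher in T3 than in T1 (median 0.87) and 1 of 8 in T2 than in T1 (median 0.68), and the summed level was 13.09 to 13.59 in T1, 13.44 to 14.13 in T2 and 13.65 to 14 in T3. Of the 3 smooth muscle markers DES was higher in T2 than in T1 (0.98, adjusted p = 0.0459), and ACTA2 (0.79, adjusted p = 0.0056) and DES (1, adjusted p = 0.0103) were higher in T3 than in T1. The part of these cells in the IL4R difference was not tested.

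IL2RG was higher in T3 than in T1 in both tissues at day 55. In jejunum the T1 pools were at 6.65, 6.51, 6.85 and 6.50 and the T3 pools at 7.62, 7.35, 7.22 and 7.62, with no overlap and a difference of 0.82 ± 0.24 (adjusted p = 0.0308). In ileum they were at 7.48, 6.14, 6.70 and 7.39 and at 8.42, 7.97, 7.94 and 7.82, again without overlap (1.11 ± 0.24, adjusted p = 0.00396). IL6ST in jejunum was at 7.6, 7.72, 7.73 and 8.01 in T1 and at 8.73, 8.08, 8.68 and 8.26 in T3 (0.67 ± 0.19, adjusted p = 0.0229). The jejunal calls of IL2RG and IL6ST were lost without any of 5 and 4 of the arrays (adjusted p from 0.0581 to 0.0863 and from 0.0503 to 0.0829), and neither held under all 3 scalings. The 2 probes of IL6ST gave 0.31 and 1.03. In ileum the call of IL2RG held under them (1.07 at the 75th percentile and 0.67 with normexp). T3 and T1 lay on different slides in both tissues, and the ileal T3 arrays had 42.4 to 52% of probes well above background.

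The 3 members lower in ileum of T3 pools at day 55 were IL4, IL2RA and IL6R, none of them detected in a T3 pool. IL4 was at 3.39, 2.36, 3.85 and 4.04 in T1, at 4.15, 3.11 and 3.16 in T2 and at 1.72, 1.78, 1.8 and 1.7 in T3 (-1.66, adjusted p = 0.00506, against T1 and -1.73, adjusted p = 0.009, against T2). IL2RA was at 3.55, 3.01, 3.21 and 3.21 in T1 and at 2.03, 1.83, 1.88 and 1.76 in T3 (-1.37, adjusted p = 0.0324). IL6R was at 5.37, 5.12, 5.32 and 5.31 in T1 and at 4.08, 4.86, 2.97 and 4.70 in T3 (-1.13, adjusted p = 0.028). The groups did not overlap, but the slide with these T3 arrays held no other group and had 42.4 to 52% of probes well above background, against 62.7 to 73.2% in T1 and T2. At the 75th percentile IL4 and IL2RA turned to 0.54 and 0.69 against T1, and since the T3 side is only a bound no fold is given. IL2RA was lost without any of 7 arrays and IL6R without any of 5, and IL4 against T2 was lost without T2 pool 5 (-1.39, adjusted p = 0.0734).

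**Figure D5:**
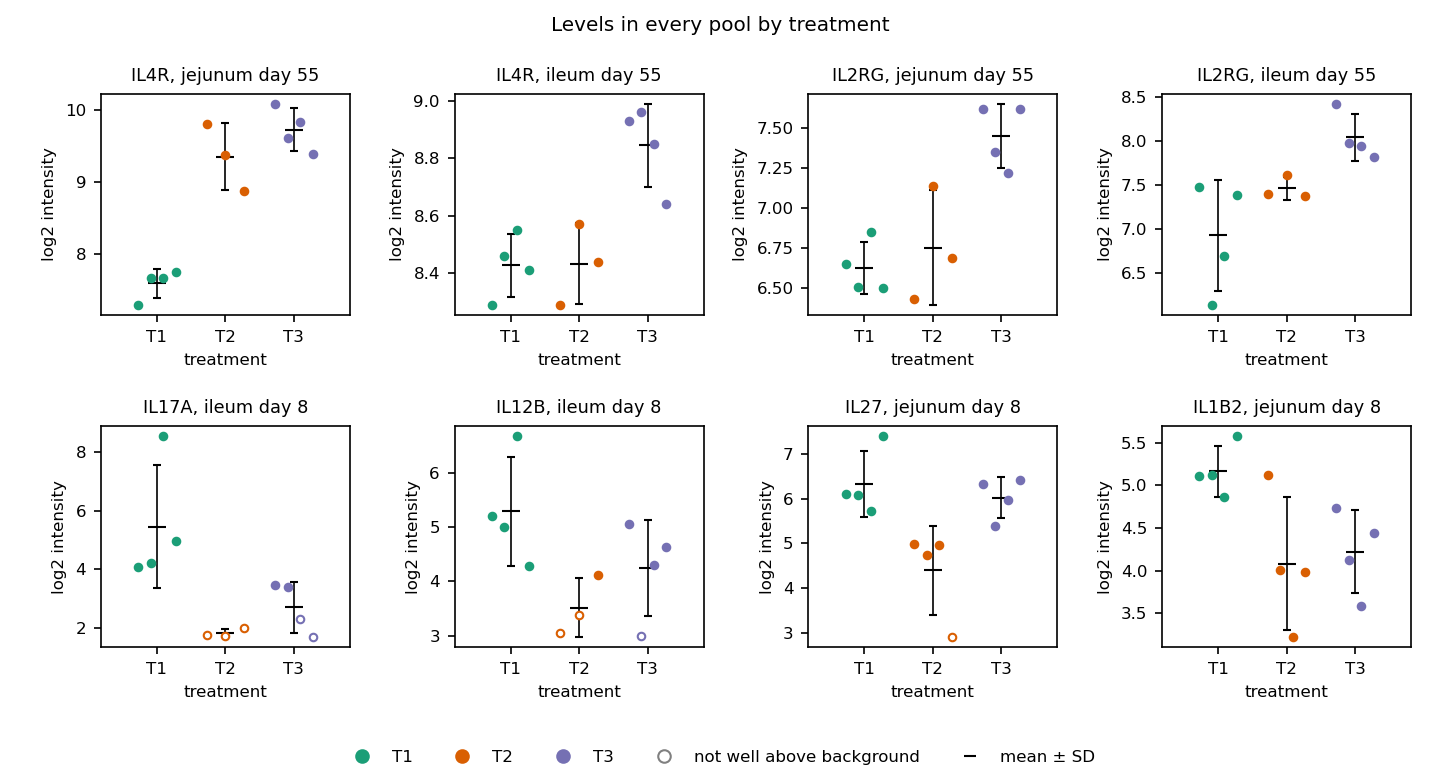
Log2 level in every pool of T1 (green), T2 (orange) and T3 (purple) for IL4R and IL2RG at day 55 in both tissues and for IL17A and IL12B in ileum and IL27 and IL1B2 in jejunum at day 8; open points were not well above background and bars give the mean and SD. The T1 pools of jejunal IL4R lie between 7.29 and 7.75 and all others above 8.8, while the day 8 panels show differences that failed the adjustment.

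At day 8, 4 days after the injection, limma called 0 of 25 members in the 6 intestinal comparisons, where 0 to 1.48% of 28262 genes were called. In the ileum, T2 against T1 gave 6 members and 5437 genes with an unadjusted p under 0.05 (0.375% of genes called), and T3 against T1 gave 4 members and 7148 genes (1.48%). Jejunum gave 4, 1 and 4 members for T2 minus T1, T3 minus T1 and T3 minus T2, where 0.0177, 0 and 0% of genes were called, and ileum T3 minus T2 gave 1 (0.0177%). For the tissue differences limma called 0 of 25 members, where at most 0.0495% of genes were called. Several members nevertheless stood out before adjustment, and all of the following failed it. Markers differed between the same pools: the summed level of 7 myeloid markers was 15.88 to 16.23 in ileal T1 pools against 15.28 to 15.5 in T2 and 15.2 to 15.71 in T3, and 15.66 to 16.69 in jejunal T1 pools against 14.26 to 15.48 and 15.25 to 15.58, although no single marker was called. That sum was carried largely by LYZ (day 8 medians 14.92 in jejunum and 15.09 in ileum, against 6.1 and 5.47 for CD14). FABP6 in ileum was at 16.49, 14.83, 13.33 and 6.26 in T1, at 5.62, 9.6 and 5.87 in T2 and at 14.65, 8.94, 14.77 and 14.7 in T3. Their part in the members' differences was not tested.

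In ileum IL17A was at 4.07, 4.21, 8.54 and 4.97 in T1 pools 9 to 12, at 1.77, 1.74 and 1.99 in T2 and at 3.45, 3.41, 2.29 and 1.68 in T3. Every T1 pool was above every other pool. T2 was lower than T1 by -3.61 ± 1.00 (adjusted p = 0.0844; at least 4.56-fold) and T3 by -2.74 ± 0.92 (adjusted p = 0.094). The array of pool 11, the highest, had 59.1% of probes well above background against 68 to 72.6% in the other T1 pools, and without it the differences were -2.58 and -1.71 (adjusted p = 0.201 and 0.321). In jejunum, where pool 11 was again the highest, IL17A was at 3.49, 1.78, 6.8 and 5.25 in T1, at 1.68, 3.04, 2.24 and 2.94 in T2 and at 2.83, 4.01, 1.66 and 2.24 in T3, and the groups overlapped. IL12B in ileum was at 5.21, 5.00, 6.68 and 4.29 in T1, 3.05, 3.38 and 4.11 in T2 and 5.05, 3.00, 4.30 and 4.63 in T3, so that T2 lay below T1 (-1.78 ± 0.48, adjusted p = 0.0807).

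The other ileal members past an unadjusted p of 0.01 at day 8 were IL23A (-1.62 ± 0.55, adjusted p = 0.141) and IL13RA1 (0.66 ± 0.18, adjusted p = 0.0849) for T2 against T1, and IL2RA (-1.05 ± 0.35, adjusted p = 0.0919) for T3 against T1. T1 and T2 ileal arrays of day 8 shared a slide. Calls at this age depended on single arrays: without ileal T1 pool 12, 8 calls were made, among them IL17A (-3.77, adjusted p = 0.0426) and IL12B (-2.12, adjusted p = 0.0211) for T2 against T1. Without jejunal T2 pool 8, 2 calls were made, both for IL10RB in ileum (1.56 and 1.32).

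In jejunum at day 8 IL27 was at 6.10, 6.08, 5.73 and 7.40 in T1, at 4.99, 4.73, 4.96 and 2.90 in T2 and at 6.33, 5.39, 5.96 and 6.41 in T3. All T2 pools lay below all others, and T2 differed from T1 by -1.93 ± 0.46 (adjusted p = 0.14) and from T3 by 1.62 ± 0.46 (T3 minus T2, adjusted p = 0.98). T2 and T3 shared a slide. IL1B2 was lower than in T1 by -1.08 ± 0.32 in T2 (adjusted p = 0.274) and by -0.94 ± 0.32 in T3 (adjusted p = 1), but its probes differed. The probe detected on all 8 arrays gave -2.54 for T2 against T1, and the one detected on 1 of 8 gave 0.80. IL23R was lower in T3 than in T2 by -1.40 ± 0.46 (adjusted p = 0.98).

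In blood limma called 0 of 22 members, where 0.00694, 0.00347 and 0% of 28812 genes were called, and 1 member in each comparison had an unadjusted p under 0.05, against 3082, 2032 and 1155 genes. IL7R in blood was at 5.75, 5.96, 5.61 and 5.59 in T1 and at 5.47, 5.05, 4.61 and 5.21 in T2 (-0.64 ± 0.19, adjusted p = 0.227), on different slides. At day 55 the members past an unadjusted p of 0.01 without a call were IL7R in ileum for T2 against T1 (0.72 ± 0.23, adjusted p = 0.348), IL1B2 in jejunum for T3 against T1 (0.78 ± 0.27, adjusted p = 0.061, and 0.0498 with the sow set as a block), IL23R and IL2RA in ileum for T3 against T2 (1.25 and -1.41, adjusted p = 0.063 and 0.0632, detected on neither side), and IL2RA for the tissue difference of T3 minus T1 (-1.96 ± 0.60, adjusted p = 0.0554).

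At day 176 limma called 0 of 24 members in the 6 comparisons, where 0 to 1.72% of 28992 genes were called. T2 against T1 in jejunum gave 9 members and 7338 genes with an unadjusted p under 0.05 (1.72% of genes called). T3 against T2 in jejunum gave 3 members (1.15%), and the others gave 0 to 2, where at most 0.0069% of genes were called. For the tissue differences limma again called 0 of 24, where 0.748, 0 and 0.217% of genes were called and 7, 0 and 2 members had an unadjusted p under 0.05. IL12RB1 in jejunum was at 9.13, 9.36, 9.46 and 9.28 in T1 and at 8.30, 8.96 and 4.09 in T2 (-2.19 ± 0.74, adjusted p = 0.112), the last being pool 8. IL23A in ileum was lower in T2 than in T1 by -1.31 ± 0.41 (adjusted p = 0.457). Without jejunal T2 pool 6, which left pools 5 and 8 in T2, 6 calls were made, among them IL12RB1 (-3.11) and IL12B (-2.25).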

How the data were processed

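RNA pools of jejunum, ileum and blood were hybridised to 1-colour Agilent arrays of the pig genome (1 array per pool). The deposited intensity values are spot signals that the authors extracted with Feature Extraction 10.7.3.1, background-subtracted by that software and not normalized between arrays. The authors' own table of log2 values, made in GeneSpring after quantile normalization, is centred per probe (column medians -0.04 to 0.4); over which arrays it was centred stays unknown, and it was used only to check array names.

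Here log2 of the processed signal (lowest value 1) was averaged over the spots of a probe, after control and flagged spots were left out (43603 probes from 43803 spots, 5461 of them with a symbol through RefSeq accessions). The 67 intestinal arrays were quantile normalized together, the 12 of blood apart, and the 35 of day 8 together for blood against intestine. Genes at or above the 20th percentile on every array of at least 1 group were kept, and no member was kept out on other grounds. In the order of the tests, 25 members were tested for treatments at day 8, 22 in blood, 25 at day 55, 24 at day 176, 27 for age and tissue, and 27 for blood against intestine. Below the filter were IL13, IL21 and IL9 at day 8, IL13, IL17A and IL21 at day 55, and IL21, IL23R, IL4 and IL9 at day 176. In blood these were IL12A, IL12B, IL12RB2, IL13, IL17A and IL23A. Where such a member was tested across ages or against blood, it entered through other groups, which favours calls toward them. limma 3.58.1 in R 4.3.3 fitted all groups of a set at once (lmFit, eBayes), and p-values were adjusted over all genes. A bound for an undetected side used, per array, the higher of the lowest signal among probes well above background and the probe's own. No member spot was flagged or saturated (0 and 0).

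By the methods, pools of the same number in jejunum and ileum held the same piglets at day 8. The same pairing was assumed at days 55 and 176, which the methods do not cover. Over 41432 probes the deviations of same-numbered arrays correlated at medians of 0.16, 0.07 and 0.04 at days 8, 55 and 176, and 6 of 11, 3 of 11 and 2 of 10 were closest to their own number. At day 8 pools of the 3 treatments in 1 position came from the same sows, and the sow set block assumed this at the later ages. The samples' number limits the precision, since arrays give no depth.

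Named were all members called in a comparison, members past an unadjusted p of 0.01 for treatments, and the 2 members with the largest change in each age, tissue and blood comparison with their values; groups of more than 5 pools are given as lowest, median and highest, and the plots show every pool. Members and lists were chosen with earlier results of these data known. Alternatives were the 75th percentile of each array, normexp with an offset of 50 (on median signals, the mean signal column being absent), no filter, a filter on detection, adjusted p alone, blocks of pool or sow set, slide as a random block for the comparisons of ages, tissues and blood, normalization and fits per age or tissue, the methods' analysis of variance, each probe alone, and each array left out. Columns of per-sample values not used numbered 0. The fits were tested on simulated data. Figures were drawn with matplotlib 3.10.9. Some genes of the lists are not reported here by name.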

Additional observations from a re-analysis of the deposited data

Results flagged for a closer look

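In 5 of 38 groups of 4 to 10 pools examined, 1 pool lay far from the others. Chance alone gives about 1 in 20 among independent groups, but these groups share arrays, so no excess can be read from the count. In ileum of T1 at day 8, pool 11 was at 6.62 for IL13RA1 (the others 7.12 to 7.17) and at 4.83 for IL2RA (3.85 to 3.91), which was not well above background in that pool. In jejunum of T2 at day 8, pool 8 was at 2.90 for IL27 (4.73 to 4.99). In ileum at day 176, T2 pool 6 was at 3.74 for IL23A (1.74 to 1.86) and T1 pool 12 at 3.11 for IL23A (3.71 to 3.80), a gene detected in 2 of 11 ileal pools at that age.

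The treatment difference of IL4R at day 55 differed between the tissues, by -1.75 for T2 minus T1 and -1.72 for T3 minus T1 (ileum minus jejunum). The change from day 8 to day 55 differed between the tissues in the same sense for IL4 (-2.48), IL7 (-2.18), IL15 (-1.60), IL18R1 (-1.25), IL5 (-0.92) and IL13RA1 (-0.83), and the other way for IL1B2 (0.75), IL23A (1.22), IL2RG (1.29) and IL16 (1.45). IL7, IL15, IL16 and IL2RG kept this call under all 3 scalings. At the 75th percentile IL4, IL18R1, IL5 and IL13RA1 were not called (-0.87, -0.26, -0.22 and -0.49), and with normexp IL1B2 and IL23A were not (0.31 and 0.15). With slide as a random block IL2RG was not called (1.11).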

How the results depend on the processing

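For named members, 1420 of 1606 values under alternatives kept direction and side of the threshold, 140 were weaker, 9 stronger, 23 moved and 14 reversed. With normexp correction there were 3 treatment calls at day 55, 7 and 6 calls from day 8 to day 55 in jejunum and ileum, 5 from day 55 to day 176 in jejunum, 4 and 5 between the tissues at days 55 and 176, 9 and 10 between blood and jejunum and ileum, and 5 for the tissue difference of the change with age. Scaling to the 75th percentile gave 3 calls between the tissues at day 8 and moved the median of all genes, from 0.21 to 1.28 and 1.43 in blood, to 0.49 from day 55 to day 176 in jejunum, 0.45 from day 8 to day 55 in ileum, 0.47 between the tissues at day 55, -0.28 at day 176 and 0.55 for the tissue difference.

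At the 75th percentile these reversed: IL4 and IL2RA in ileum at day 55 (0.54 and 0.69 for T3 minus T1, 0.54 and 0.78 for T3 minus T2), IL17A (0.2) and IL2RA (0.46) from day 8 to day 55 in ileum, IL6R (0.59) from day 55 to day 176 in jejunum, and in blood IL12B (1.32 and 1.17), IL17A (2.4 and 2.32) and IL12A (2.6). IL4 for T3 minus T2 was 0.05 with normexp, and IL2RG from day 55 to day 176 in jejunum 0.01 on 1 of its 2 probes. The cause was not tested.

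Slide as a random block beside the groups was not run, since each group lay on 1 slide. Chosen after seeing the data, a fit by tissue and age without treatment took it as a random block (correlation 0.102), and left 9 ileal calls from day 8 to day 55, 0 between the tissues at day 8 and 6 for the tissue difference. Also added then, the array names of the table gave 4 treatment calls at day 8, 9 and 1 calls from day 8 to day 55, 16 from day 55 to day 176 in ileum, and 14 and 15 between the tissues at days 8 and 55. Without jejunal T2 pool 8 of day 8, 2 treatment calls were made at day 8.

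Leaving out each array gave 0 to 8 treatment calls at day 8, 0 in blood, 7 to 10 at day 55 and 0 to 6 at day 176. From day 8 to day 55 it gave 12 to 16 in jejunum and 13 to 15 in ileum, from day 55 to day 176 12 to 16 and 6 to 7, between the tissues 0 to 2, 8 to 10 and 9 to 12, for blood 18 to 22 in both, and for the tissue difference 10 to 11. For the interval from day 8 to day 176, where this was added after seeing the data, the calls lost were those of IL10RB in ileum and, in jejunum, IL23A without any of 15 and IL6R without any of 6 arrays. The replicate block changed no other call than those named with the results and moved no count by over 1.5 times. Detection over background limits what the low members can show.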
